A study of Mus musculus with 6 samples.

Results

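Nicotinic acetylcholine receptor subunits were followed in cochlear explants treated with an inhibitor of Notch receptor cleavage. The 10 genes are the efferent subunits *Chrna9* and *Chrna10*, the muscle subunits *Chrna1*, *Chrnb1* and *Chrnd*, and the neuronal subunits *Chrna3*, *Chrna4*, *Chrna7*, *Chrnb2* and *Chrnb4*. They were found by symbol among the array's transcript clusters that name 1 gene, and each was read from the cluster of highest average signal, which gives 10 of 20259 genes. Wild type cochlear tissue was taken from mouse embryos at E15.5 and cultured either with 3.33 µM DAPT, an inhibitor of the γ-secretase that cleaves Notch receptors and other membrane proteins, or with the vehicle DMSO at 0.013%. All cultures received the same supplemented medium with EGF and FGF. By the sample labels, culture lasted 23, 19 and 24 hours in experiments 1, 2 and 3, of which the longer times lie outside the range in the study's text, and the difference could not be settled. Each experiment gave 1 RNA pool of DAPT explants and 1 of control explants, hybridized to 6 Mouse Exon 1.0 ST arrays in all. The duct was freed enzymatically from explants that still carried mesenchyme and the innervating spiral ganglion. Values are the deposited log2 signals, and every difference is DAPT minus control on the log2 scale.

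Nicotinic receptors are channels made of several subunits that open when acetylcholine binds and let cations into the cell. In hair cells (HCs) the α9 and α10 subunits form the receptor of the efferent fibres that reach the cochlea from the brainstem, and the calcium that enters through it opens nearby potassium channels and inhibits the cell. Muscle receptors are built from α1, β1, δ and either the embryonic γ or the adult ε subunit, whereas neurons combine α subunits such as α3 and α4 with β2 or β4, or use α7 alone. Transcripts of muscle subunits have also been described in developing HCs.

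The arrays were alike in scale, with median signals between 6.30 and 6.36. Mesenchyme signal varied more between them. The mean signal of 8 mesenchyme markers lay between 8.61 and 9.70 on the DAPT arrays and between 8.51 and 9.63 on the control arrays. Of these markers 0 had an unadjusted p under 0.05, and the median difference was 0.11. The largest difference was that of *Col1a1*, a collagen gene, at 0.24. The part of these markers in the differences of the subunits was not tested. Of 7 measured epithelial markers of the cochlear duct, 1, *Krt8*, was lower at an unadjusted p under 0.05, and the mean signal of the list lay between 10.7 and 11.2 on the DAPT arrays and between 10.85 and 11.3 on the control arrays. Over all genes, 2.59% were lower and 5.27% higher at that threshold. The 12 HC markers were all higher with DAPT at an unadjusted p under 0.05 and the 8 markers of supporting cells (SCs) and Notch targets were all lower, with median differences of 0.66 and −0.91. Several of these markers had been chosen by the study from the same arrays. Changes in the number of cells of a type and changes of RNA per cell cannot be told apart in pools.

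Most subunits had higher signals with DAPT. Of the 10 genes, 9 were higher in all 3 experiments, against 19.1% of all genes, and 1, *Chrna7*, was lower in all 3, against 10.5% of all genes. Other lists also held genes higher in all 3 experiments. They were 5 of 8 mesenchyme markers, with 1 lower, and 3 of 5 muscarinic receptor genes, with 0 lower. They were also 4 of 10 skeletal muscle markers and 4 of 13 neuron markers, with 1 lower in each. Of 7 epithelial markers, 0 were higher and 2 lower. A rise in all 3 experiments was thus not particular to the subunits. The median difference was 0.26 over the 10 genes and 0.02 over all genes. In limma with the experiment as a block, 8 of the 10 lay above 0 with an unadjusted p under 0.05 and 0 lay below it, where 5.27% of all genes were higher and 2.59% lower. The DAPT and control values did not overlap for *Chrna9* and *Chrnb2*, which were higher, against 4.94% of all genes, and for *Chrna7*, which was lower, against 2.35% of all genes. None of the 10 passed an adjusted p of 0.05. Neither did any of the 20259 genes (0%), although 1592 had an unadjusted p under 0.05. A one-way model without block also passed 0 and gave 705 at an unadjusted p under 0.05. That model pooled the variance of the 2 groups within a gene and shared none across genes. The lowest adjusted p among the 10 genes was 0.129, that of *Chrna10*, and the lowest over all genes was 0.0591.

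The count of 8 rests on the pairing of pools within experiments. Without the block 2 of the 10 genes, *Chrna4* and *Chrnb2*, had an unadjusted p under 0.05, against 1.94% of all genes higher. With the block, 5, 5 and 4 genes were higher at an unadjusted p under 0.05 without experiments 1, 2 and 3, and the background was then 6.71%, 3.49% and 3.55%. *Chrna7* was lower at an unadjusted p under 0.05 without experiment 3. For 8 of the 10 genes, all but *Chrna9* and *Chrnb2*, the control arrays of different experiments lay further apart than the mean difference of DAPT and control, as the plot of signals by array shows.

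**Figure D1:**
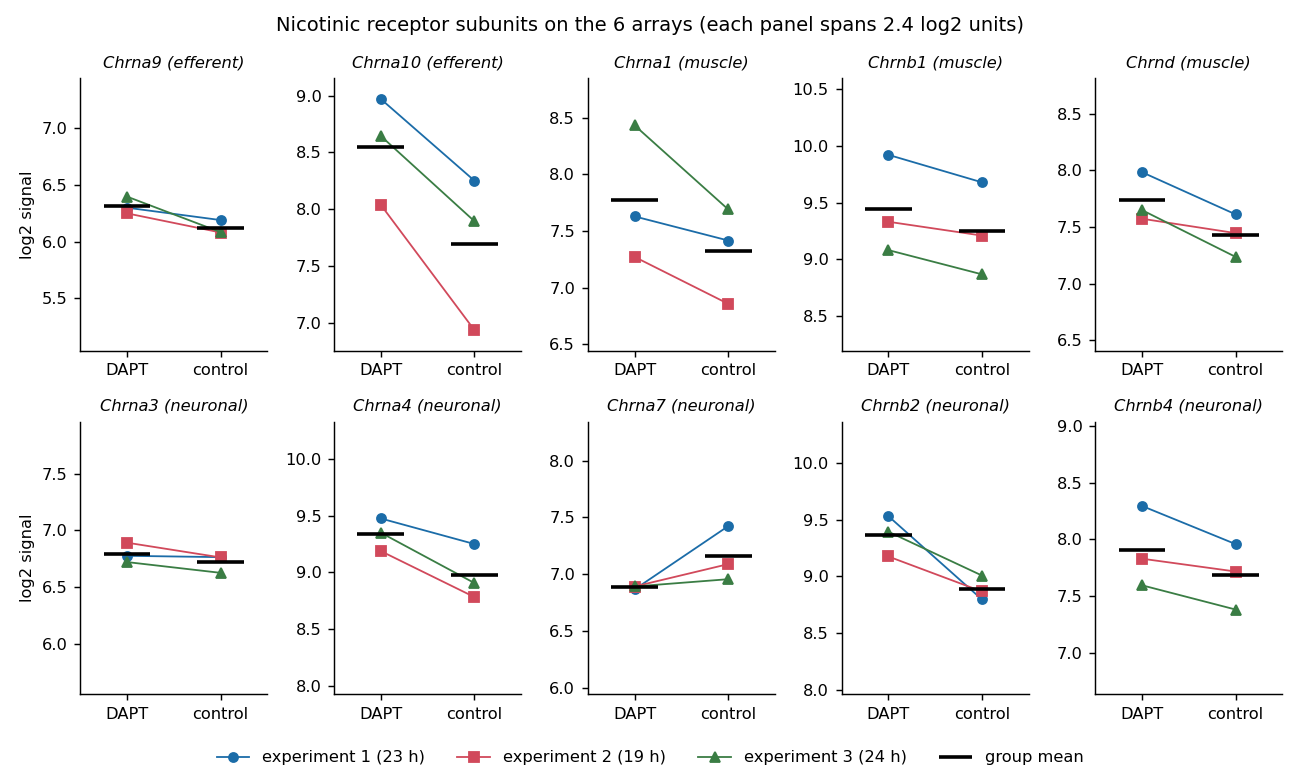
Log2 signal (y axis) of the 10 subunit genes, 1 panel each, on the DAPT and control arrays (x axis). Each point is an array, a line joins the pools of 1 experiment, and black bars are group means. *Chrna10* lay higher with DAPT in each experiment, by 0.72, 1.10 and 0.75, and *Chrna7* lay lower, by 0.56, 0.20 and 0.06.

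*Chrna10*, which encodes the α10 subunit of the efferent receptor, had the largest difference of the 10. Its log2 signal was 8.97, 8.04 and 8.64 on the DAPT arrays of experiments 1, 2 and 3, against 8.25, 6.93 and 7.89 on the control arrays. DAPT was higher within every experiment, by 0.72, 1.10 and 0.75, but the groups overlapped, because the DAPT array of experiment 2 lay below the control array of experiment 1. Experiment 2, the shortest culture by the labels, had the lowest signal of this gene under both conditions. The mean was 8.55 ± 0.47 with DAPT and 7.69 ± 0.68 in controls (SD, n = 3 each), a difference of 0.86 (standard error 0.10, 95% interval 0.61 to 1.11), or 1.81-fold, with an adjusted p of 0.129 in limma. The adjusted p was 0.043 when only genes above the median signal were tested and 0.0476 with array weights, and over all alternatives it ranged from 0.043 to 1. The filter used the mean over all 6 arrays, and *Chrna10* passed it through its DAPT arrays, since its control mean of 7.69 was below the median of all genes, 7.78, so the filtered value is no support. The study itself listed *Chrna10* among the genes higher with DAPT on these arrays, so the direction is not independent evidence. The ratio it listed matches the cluster with the second highest mean, described next, and not the cluster read here.

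Other clusters of the array that name *Chrna10* could be set beside it, a choice made after its values were seen. The cluster with the second highest mean read 8.82, 7.90 and 8.46 with DAPT, against 7.94, 6.70 and 7.66 in controls, a difference of 0.96 (standard error 0.11). It ordered the 6 arrays as the first cluster did. At 1.94-fold, it matches the ratio that the study listed for *Chrna10*. It is therefore not a reading apart from that listing. The third and dimmest cluster read 7.40, 6.60 and 7.54 with DAPT, against 7.02, 6.46 and 6.21 in controls, with differences of 0.38, 0.14 and 1.34 in the 3 experiments. Its mean difference of 0.62 (standard error 0.25) had an interval from −0.02 to 1.25, and most of it came from experiment 3.

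*Chrna9*, which encodes the partner subunit α9, was dim and differed less. Its signal was 6.30, 6.25 and 6.40 with DAPT, against 6.19, 6.08 and 6.08 in controls. Every DAPT value was above every control value. The mean was 6.31 ± 0.08 with DAPT and 6.12 ± 0.06 in controls (SD, n = 3 each), a difference of 0.20 (standard error 0.08), or 1.15-fold, with an adjusted p of 0.634 in limma. Its mean over the 6 arrays, 6.22, was below the 95th percentile of 846 olfactory receptor genes, 7.03, which served as a set of dim clusters. The median of that set was 4.88. *Chrna3* and *Chrna7* were below the 95th percentile too, *Chrna7* only just at 7.02, and the other 7 genes were above. The third cluster of *Chrna10*, with a mean of 6.87, was also below it. The difference of *Chrna10* exceeded that of *Chrna9* by 0.61, 0.94 and 0.44 in experiments 1, 2 and 3, a mean of 0.66 ± 0.25 (SD, n = 3), which compares differences of clusters of unequal brightness.

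The promoters of the efferent pair are shown because Notch signaling acts on DNA through RBPJ, and because ATOH1 binds E-boxes. The windows hold 250 bases before and 50 after the start of the gene, from RefSeq on GRCm38.p6, on the strand of the gene. Capitals mark matches to the E-box CAGCTG, to the variants CAGGTG and then CAGATG, and to the RBPJ core TGGGAA. Both strands were searched, and a match on the opposite strand stands as its reverse complement. *Chrna10* lies at chr7:102116664-102116963 on the minus strand and *Chrna9* at chr5:65966874-65967173 on the plus strand.
Chrna10: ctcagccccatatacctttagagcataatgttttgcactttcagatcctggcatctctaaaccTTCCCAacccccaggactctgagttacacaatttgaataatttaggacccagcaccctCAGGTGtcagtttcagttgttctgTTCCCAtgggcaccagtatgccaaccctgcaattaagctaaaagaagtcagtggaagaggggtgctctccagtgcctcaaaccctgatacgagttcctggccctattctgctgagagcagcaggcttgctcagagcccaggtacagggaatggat
Chrna9: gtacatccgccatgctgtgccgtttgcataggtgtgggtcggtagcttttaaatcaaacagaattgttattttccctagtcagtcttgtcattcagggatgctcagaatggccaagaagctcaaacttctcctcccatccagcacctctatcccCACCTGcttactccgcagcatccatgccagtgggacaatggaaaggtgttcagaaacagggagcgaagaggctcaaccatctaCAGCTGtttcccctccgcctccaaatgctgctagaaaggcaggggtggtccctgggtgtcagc
The *Chrna10* window held CAGGTG at position −129 from the start and the RBPJ core on the opposite strand at −187 and −105. The *Chrna9* window held CAGGTG on the opposite strand at −96 and CAGCTG at −13. Of 32851 windows of this length, 16.3% held CAGCTG, 20.2% CAGGTG, 17.2% CAGATG and 25.6% TGGGAA. A match describes letters only and says nothing of binding.

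HC markers were higher on the same arrays. The mean signal of the 12 HC markers lay between 8.92 and 9.47 on the DAPT arrays and between 8.20 and 8.66 on the control arrays, and their median difference was 0.43, 0.71 and 0.93 in experiments 1, 2 and 3. *Chrna10* exceeded this median by 0.29 and 0.40 in experiments 1 and 2 and was below it by 0.18 in experiment 3. *Chrna9* stayed below it in every experiment. The part of the HC markers in the differences of the subunits was not tested.

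The 3 muscle subunits were each higher with DAPT in all 3 experiments. *Chrna1*, which encodes the α1 subunit that holds the acetylcholine binding face, had signals of 7.63, 7.27 and 8.43 with DAPT, against 7.42, 6.86 and 7.69 in controls. DAPT was higher by 0.21, 0.41 and 0.74 within experiments, most in experiment 3, and the groups overlapped. The mean was 7.78 ± 0.59 with DAPT and 7.32 ± 0.42 in controls (SD, n = 3 each), a difference of 0.46 (standard error 0.12, 95% interval 0.17 to 0.74), or 1.37-fold, with an adjusted p of 0.384 in limma.

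*Chrnd*, the gene of the δ subunit, had signals of 7.98, 7.57 and 7.65 with DAPT, against 7.61, 7.45 and 7.24 in controls. The groups overlapped only through the DAPT array of experiment 2, which was below the control array of experiment 1. The difference was 0.30 (standard error 0.09, 95% interval 0.09 to 0.52), with an adjusted p of 0.452 in limma. *Chrnb1*, the gene of the β1 subunit, had signals of 9.92, 9.33 and 9.08 with DAPT, against 9.68, 9.21 and 8.87 in controls. Its spread between experiments was several times its spread between conditions, and the groups overlapped. The difference was 0.19 (standard error 0.07, 95% interval 0.0089 to 0.38), with an adjusted p of 0.612 in limma. Without the DAPT array of experiment 1 and without the block it was −0.046.

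*Chrng*, the gene of the embryonic γ subunit, was not among the 10 but completes the muscle receptor. Its signal was 8.97, 8.35 and 8.59 with DAPT, against 8.37, 7.92 and 8.08 in controls. The differences of 0.61, 0.43 and 0.51 were even across experiments, although the DAPT array of experiment 2 was just below the control array of experiment 1. The mean difference was 0.51 (standard error 0.08, 95% interval 0.32 to 0.71), or 1.43-fold, with an adjusted p of 0.215 in limma. *Chrne*, the gene of the adult ε subunit, had a difference of −0.01. The promoters of *Chrna1* and *Chrng* are shown for their E-boxes, since these were the muscle subunits with the largest differences. They lie at chr2:73580289-73580588 on the minus strand and at chr1:87205561-87205860 on the plus strand of GRCm38.p6, with the same marking as above.
Chrna1: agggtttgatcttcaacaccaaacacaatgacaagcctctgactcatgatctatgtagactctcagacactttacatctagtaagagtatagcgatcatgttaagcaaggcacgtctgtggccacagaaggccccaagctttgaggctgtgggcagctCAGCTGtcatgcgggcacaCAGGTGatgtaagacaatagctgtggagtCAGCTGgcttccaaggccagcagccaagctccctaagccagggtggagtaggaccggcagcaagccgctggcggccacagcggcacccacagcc
Chrng: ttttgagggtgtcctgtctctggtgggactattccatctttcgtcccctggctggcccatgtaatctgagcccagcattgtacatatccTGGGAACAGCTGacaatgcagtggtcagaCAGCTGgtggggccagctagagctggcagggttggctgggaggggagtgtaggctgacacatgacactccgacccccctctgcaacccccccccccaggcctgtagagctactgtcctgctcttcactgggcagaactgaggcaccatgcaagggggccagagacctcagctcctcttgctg
The *Chrna1* window held CAGCTG at −92 and −44 and CAGGTG at −73. The *Chrng* window held CAGCTG at −155 and −132, and the first of these followed directly on the RBPJ core at −161. Of the 13 windows found for 12 of the 16 subunit genes, 5 held CAGCTG, 6 CAGGTG, 0 CAGATG and 4 TGGGAA. *Chrnd* had no entry among the windows.

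Markers of skeletal muscle were looked at beside these subunits. Of 10 measured, *Actc1*, the cardiac actin gene that embryonic skeletal muscle also uses, was higher by 0.41 and *Des*, the desmin gene, by 0.22 at an unadjusted p under 0.05, and 0 were lower. At that threshold 5.27% of all genes were higher and 2.59% lower. The mean signal of the list lay between 7.36 and 7.46 on the DAPT arrays and between 7.32 and 7.34 on the control arrays, with a median difference of 0.02. The myogenic regulators *Myod1* and *Myog* had differences of 0.06 and −0.02. Their part in the result was not tested. Of 6 genes that cluster the receptor at the muscle synapse, 0 had an unadjusted p under 0.05 in limma and 0 passed after adjustment, with a median difference of 0.07. The differences furthest from 0 were those of *Agrn*, the gene of the clustering signal agrin, at −0.15, and of *Rapsn*, the gene of the anchoring protein rapsyn, at 0.14.

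Among the neuronal subunits *Chrna4* and *Chrnb2* had the largest differences, and their products combine in the main α4β2 receptor of the brain. *Chrnb2* had signals of 9.53, 9.18 and 9.39 with DAPT, against 8.80, 8.87 and 9.01 in controls. The groups did not overlap. The mean was 9.37 ± 0.18 with DAPT and 8.89 ± 0.11 in controls (SD, n = 3 each), a difference of 0.48 (standard error 0.10, 95% interval 0.22 to 0.74), or 1.39-fold, with an adjusted p of 0.359 in limma. Its unadjusted p was under 0.05 in all 17 alternatives run for it. *Chrna4* had signals of 9.48, 9.19 and 9.35 with DAPT, against 9.25, 8.78 and 8.91 in controls. The groups overlapped only through the control array of experiment 1, which was above the DAPT array of experiment 2. The difference was 0.36 (standard error 0.08, 95% interval 0.16 to 0.56), or 1.28-fold, with an adjusted p of 0.363 in limma.

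*Chrnb4* and *Chrna3* encode the pair that autonomic ganglia use, and they are neighbours in the genome together with *Chrna5*. *Chrnb4* had signals of 8.29, 7.83 and 7.60 with DAPT, against 7.96, 7.72 and 7.38 in controls. Both conditions were highest in experiment 1 and the groups overlapped. The difference was 0.22 (standard error 0.08, 95% interval 0.02 to 0.42), with an adjusted p of 0.584 in limma. *Chrna3* had signals of 6.78, 6.89 and 6.72 with DAPT, against 6.76, 6.76 and 6.63 in controls. The groups overlapped, and the difference of 0.08 (standard error 0.07) had an interval from −0.10 to 0.26. *Chrna5*, an accessory subunit, was outside the 10 and dim, and its difference was 0.29 (standard error 0.10, adjusted p in limma 0.544).

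*Chrna7*, whose product forms a receptor of α7 alone, was the exception to the direction of the others. Its signal was 6.87, 6.89 and 6.89 with DAPT, against 7.42, 7.09 and 6.95 in controls. The DAPT arrays were nearly equal and all lay below the controls, which differed from each other. The mean was 6.88 ± 0.01 with DAPT and 7.16 ± 0.24 in controls (SD, n = 3 each), a difference of −0.27 (standard error 0.11, 95% interval −0.55 to 0.0036), with an adjusted p of 0.638 in limma. Without experiment 1 the difference was −0.13. The unadjusted p was under 0.05, with the same direction, in 6 of 17 alternatives, among them the mean of both clusters, at −0.50. The second cluster of the gene, chosen for display after its values were seen, read 5.39, 5.70 and 5.07 with DAPT, against 6.92, 6.03 and 5.39 in controls, a difference of −0.73 (standard error 0.27). Experiment 1 again carried most of it, with −1.53 against −0.33 in experiment 2 and −0.32 in experiment 3. Both clusters of *Chrna7* lay in the range of the olfactory receptor genes, the first only just. Its mean over the 6 arrays was 7.02 against the cutoff of 7.03, and its control mean of 7.16 was above that cutoff.

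**Figure D2:**
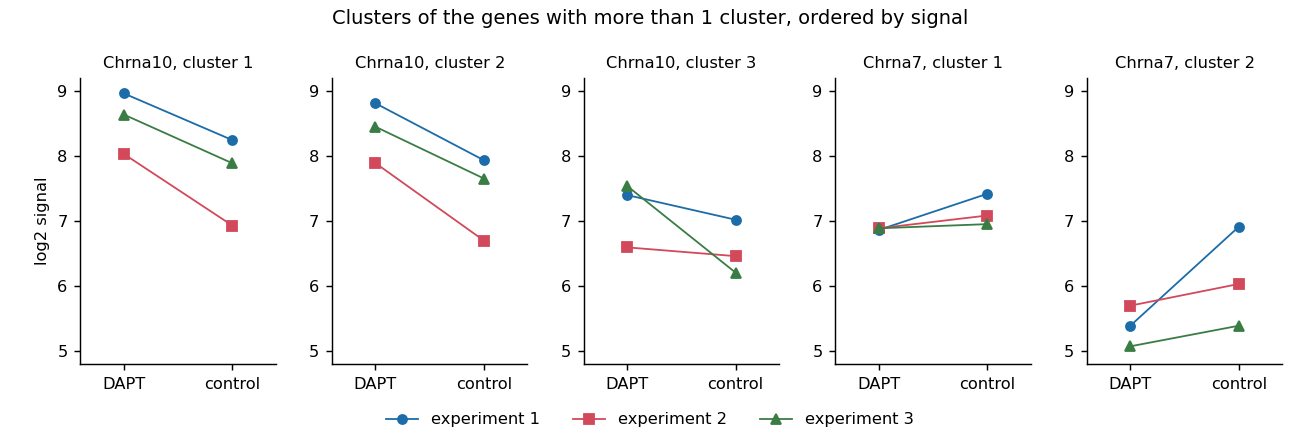
Log2 signal (y axis) of every cluster that names *Chrna10* or *Chrna7*, 1 panel each, on the DAPT and control arrays (x axis), with a line joining the pools of 1 experiment. All 3 *Chrna10* clusters were higher with DAPT in every experiment and both *Chrna7* clusters were lower. The third *Chrna10* cluster and both *Chrna7* clusters lay in the range of the olfactory receptor genes, the first *Chrna7* cluster only just.

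Neuron markers were looked at beside the neuronal subunits, since the spiral ganglion was part of the explants. Of 13, *Isl1*, a transcription factor of ganglion neurons that the sensory epithelium also expresses, was lower by 0.40 and 0 were higher at an unadjusted p under 0.05. The mean signal of the list lay between 7.84 and 8.54 on the DAPT arrays and between 7.68 and 8.56 on the control arrays, with a median difference of 0.09. Of 5 measured markers of glia and neural crest, *S100b*, which HCs and SCs also express, was higher by 0.31 at an unadjusted p under 0.05 and 0 were lower. The shares over all genes at that threshold were 5.27% higher and 2.59% lower. The part of these markers in the differences of the subunits was not tested.

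The efferent pair was compared with the other classes within each experiment. The mean difference of *Chrna9* and *Chrna10* was 0.41, 0.64 and 0.53 in experiments 1, 2 and 3, that of the 3 muscle subunits was 0.28, 0.22 and 0.46, and that of the 5 neuronal subunits was 0.15, 0.15 and 0.21. Efferent subunits exceeded muscle subunits by 0.14, 0.42 and 0.08, a mean of 0.21 ± 0.18 (SD, n = 3). They exceeded neuronal subunits by 0.26, 0.48 and 0.32, a mean of 0.36 ± 0.11 (SD, n = 3). The order of efferent and muscle subunits rested on a gap little larger than its spread between experiments, and without experiment 2 the gap was 0.11. No test was made of these means, because the classes hold few genes that were chosen with results known, and the efferent mean joins the largest difference of the 10 with one of the smallest.

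**Figure D3:**
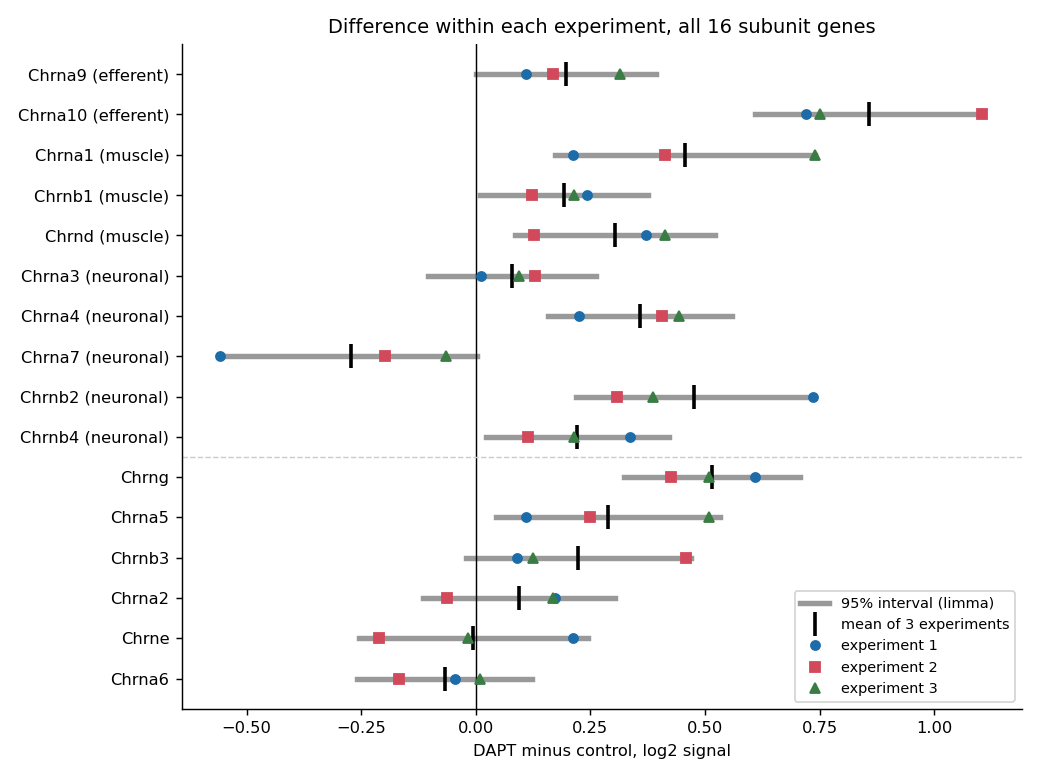
Difference of DAPT minus control in log2 signal (x axis) for all 16 subunit genes (y axis), the 10 genes above the dashed line and the other 6 below it, with a point for each experiment and the mean with its 95% interval from limma. Of the 10, 9 have means right of 0, with *Chrna10* furthest at 0.86 and *Chrna7* on the left at −0.27.

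All 16 nicotinic subunit genes of the array had a median difference of 0.22. Of these, 12 were higher and 1 lower in all 3 experiments, against 19.1% and 10.5% of all genes, and 10 had an unadjusted p under 0.05 with a difference above 0, against 5.27% of all genes. Of the 6 subunits outside the 10, *Chrng* alone was above the range of the olfactory receptor genes, and *Chrnb3*, *Chrna2*, *Chrna6* and *Chrne* had no unadjusted p under 0.05. *Chrnb3*, an accessory β subunit, had signals of 6.13, 6.57 and 6.23 with DAPT, against 6.04, 6.12 and 6.11 in controls. All its DAPT values were above its control values, by a mean of 0.22 (standard error 0.10), most of it from experiment 2. *Chrna2* had a difference of 0.09 and *Chrna6* one of −0.07.

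Genes that act with the efferent receptor in HCs were looked at next. Of 5 measured, 3 had an unadjusted p under 0.05 with a higher signal, against 5.27% of all genes, the median difference was 0.28, and none passed after adjustment. *Kcnma1*, the gene of the large calcium-activated potassium channel, had signals of 8.11, 7.37 and 8.06 with DAPT, against 7.71, 7.02 and 7.40 in controls, a difference of 0.47 (standard error 0.09). As for *Chrna10*, both conditions were lowest in experiment 2 and the groups overlapped. *Ocm*, the gene of the calcium buffer oncomodulin, had signals of 6.68, 6.85 and 7.83 with DAPT, against 6.45, 6.51 and 7.36 in controls, a difference of 0.34 (standard error 0.08). Experiment 3 was highest under both conditions. *Atp2b2*, the gene of the calcium pump of the hair bundle, was higher by 0.28 (standard error 0.09), and *Cacna1d*, the gene of the HC calcium channel, had a difference of 0.28 with no unadjusted p under 0.05. *Kcnn2*, the gene of the SK2 potassium channel that the receptor opens, had signals of 6.71, 6.62 and 6.62 with DAPT, against 6.65, 6.58 and 6.60 in controls. These are close together, and the difference of 0.04 had an interval from −0.14 to 0.21. The clusters of *Kcnn2* and *Ocm* lay in the range of the olfactory receptor genes.

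Chaperones and modulators of nicotinic receptors were mixed. Of 9 measured, *Ric3*, the gene of an assembly chaperone, was higher by 0.21 (standard error 0.08) and *Lypd6b*, the gene of a modulator of the Ly6 family, lower by 0.23 (standard error 0.08) at an unadjusted p under 0.05. Of 5 genes for the synthesis, transport and breakdown of acetylcholine, *Slc5a7*, the gene of the choline transporter of cholinergic terminals, was lower by 0.19 at an unadjusted p under 0.05 and the median difference was 0.02. Of the 5 muscarinic receptor genes *Chrm5* was higher by 0.42 (standard error 0.12) at an unadjusted p under 0.05, and the median difference was 0.08. None of these genes passed after adjustment, and *Ric3* and *Chrm5* lay in the range of the olfactory receptor genes. At the unadjusted threshold 5.27% of all genes were higher and 2.59% lower.

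**Figure D4:**
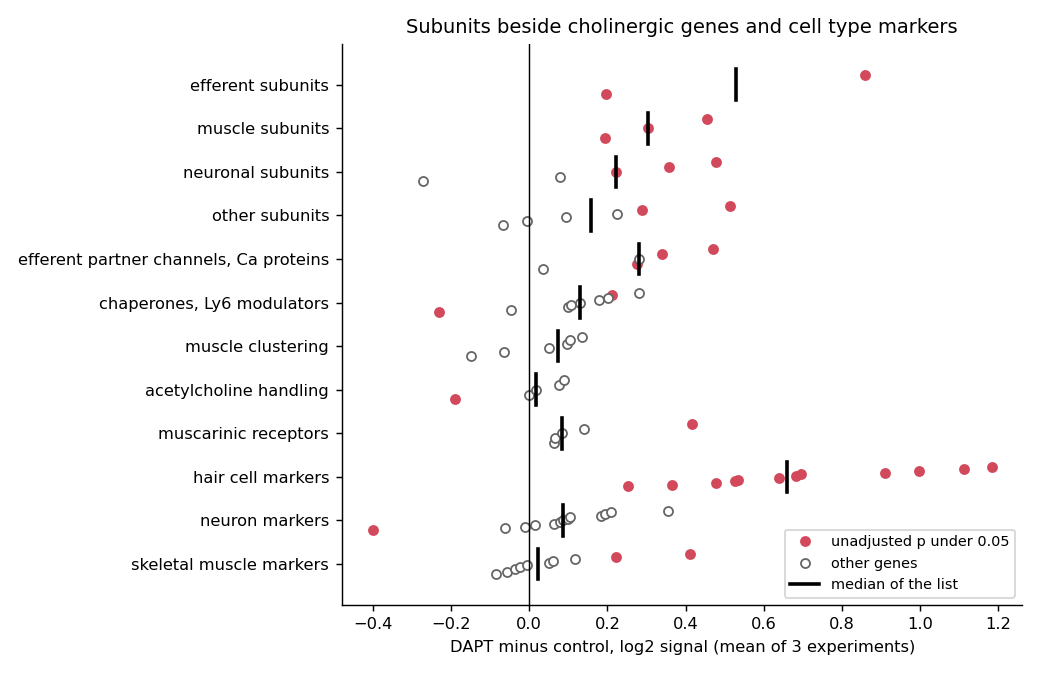
Difference of DAPT minus control in log2 signal (x axis) of each measured gene, by list (y axis), with the median of each list. Shown are the receptor and pathway lists and the markers of HCs, neurons and skeletal muscle. The other marker lists, that of SCs and Notch targets among them, are not shown. Filled points have an unadjusted p under 0.05. The subunit classes lie mostly right of 0, the HC markers further right with a median of 0.66, and the skeletal muscle markers around 0.02.

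The genes whose profile over the 6 arrays was closest to that of *Chrna10*, by root mean square distance after each was centred on its own mean and among 10128 genes above the median signal, were *Grxcr2* at 0.199, *Tmem255b* at 0.217, *Lrrc10b* at 0.226, *Bsnd* at 0.236 and *Tacr3* at 0.258. *Grxcr2* encodes a protein of stereocilia and *Bsnd* encodes barttin, a subunit of chloride channels of the inner ear. *Tacr3* encodes a receptor of neurokinin peptides. Their own differences were 0.75 for *Grxcr2*, 1.08 for *Tmem255b*, 0.69 for *Lrrc10b*, 0.62 for *Bsnd* and 0.82 for *Tacr3*. These genes were picked for closeness over the same arrays, so differences near that of *Chrna10* follow from the choice. *Grxcr2* and *Tacr3*, like *Chrna10*, were above the median signal only through their DAPT arrays. For *Chrna9*, whose signal hardly varied, the closest genes were *Slc5a6*, *Thap11*, *Tlr9*, *Bhlhe41* and *Tceanc* at distances from 0.0304 to 0.0367, and these profiles were flat as well.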

How the data were processed

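RNA from cochlear epithelium was measured on 6 Mouse Exon 1.0 ST arrays. The authors extracted and normalized the scans in Partek with RMA, and the deposited unit is the log2 signal of a transcript cluster, used without rescaling. The submitters' notes name the mm9 build. Of 115830 clusters, 25539 named 1 gene, 2300 several and 87991 none in the annotation used, and the brightest cluster stood for each of 20259 genes.

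The limma package 3.58.1 (lmFit and eBayes, R 4.3.3) tested DAPT against control over all genes, taking experiment as block, with p-values adjusted after Benjamini-Hochberg at 0.05. The block follows the study's design of 1 DAPT and 1 control pool per experiment. Across genes, r between array deviations was 0.556, 0.434 and 0.513 for pools of the same experiment and at most 0.00925 for others. Deviations were taken from each condition's own mean, so positive values for the same experiment force low values for the others. The limma p-values and standard errors rest on 3 differences within experiments. The variance of each gene was moderated toward a value estimated over all genes, so they do not measure the spread of its own 3 differences alone. Tables and figures used Python 3.11.15, pandas 2.3.3, numpy 2.4.6 and matplotlib 3.10.9. The fit was also run on simulated data, whose gene variances were drawn toward their median. That run therefore does not show how many changes the real arrays could detect. Precision is limited by the 6 arrays.

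The members and lists were chosen with earlier results of these data known. Named genes are the 10 members, list genes with an unadjusted p under 0.05 or else the largest difference, and the 5 closest profiles to each efferent subunit. Markers of HCs and SCs, all with an unadjusted p under 0.05, are given as counts, and *Cacna1d*, *Kcnn2*, *Rapsn*, *Myod1*, *Myog* and the other subunits without such a p were named outside this rule after their values were seen. Some genes of the lists were not analysed here. Alternatives were a fit without the block, each experiment or array left out, renormalization, median centring and a signal filter. Further ones were the mean of clusters, a trend and robust prior, array weights, and an unpaired one-way model. The study's results name a one-way model without stating whether pools were paired, so the unpaired model may differ from the study's test.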

Additional observations from a re-analysis of the deposited data

How the results depend on the processing

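None of the 20259 genes passed the adjusted threshold with the block, and 0 passed without any 1 experiment or array. After adjustment 3 genes passed when the arrays were quantile normalized again, 26 among genes above the median signal, 6 with the mean of clusters, 6 with a trend and robust prior and 30 with array weights. The count at an unadjusted p under 0.05, 1592, was 593 without the replicate block, 804 above the median signal, 2543 with array weights and 705 in the one-way model, and lay between 426 and 2305 with an experiment or array left out. Without the block it was 948 without control replicate 1, 685 without DAPT replicate 1, 426 without control replicate 2, 573 without DAPT replicate 2, 459 without control replicate 3 and 615 without DAPT replicate 3. *Chrna10* passed above the median signal, at 0.86 with an adjusted p of 0.043, which is no support because its DAPT arrays carried it through that filter, and with array weights, at 0.96 with an adjusted p of 0.0476. Among leave-one-out fits its difference ran from 0.48, without control replicate 2 and without the block, to 1.14. *Chrnb1* ran from −0.046, without DAPT replicate 1 and without the block, to 0.41 without control replicate 1, and *Chrnb4* from 0.027 without DAPT replicate 1 to 0.38 without DAPT replicate 3. *Chrnd* was 0.18 without DAPT replicate 1, and *Chrna3* was 0.031 without DAPT replicate 2 and 0.033 without control replicate 3, all without the block. *Chrna7* was lower at an unadjusted p under 0.05 in 6 of 17 alternatives. *Chrna1* ran from 0.13 without DAPT replicate 3 to 0.71 without DAPT replicate 2. The excess of efferent over muscle subunits ran from 0.11 to 0.28 and that over neuronal subunits from 0.29 to 0.40. In all settings that held 10 genes, 9 had differences above 0, except 8 without DAPT replicate 1 and without the block. The median of all genes shifted by 0.00787 under median centring and by 0.0299 under renewed quantile normalization. The clusters added beside the main ones were chosen after seeing the data. Dim clusters, *Chrna9*, *Chrna3* and *Chrna7* among them, limit what small differences can show.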
